A study of Drosophila melanogaster with 6 samples.

Results

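The eye pigment genes of Drosophila melanogaster were followed here as possible markers of the fly stocks: 10 genes of pigment transport or synthesis (w, st, bw, cn, v, ry, pr, Pu, se and cd), each read through every probe set that the platform annotation assigns to that gene alone. Of these 10 genes, 8 had such a probe set, and they are 8 of the 11982 genes measured. The brown gene bw had 2 probe sets and each of the other 7 had 1, which gave 9 in all. The transporter gene w and the tryptophan dioxygenase gene v, both on the X chromosome, had none in the annotation used here and were not analysed. A marker mutation in w or v would thus go unseen here.

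RNA came from whole larvae of instar 1 and was hybridised to 6 Affymetrix arrays, 3 for larvae labelled as Pof mutant (allele D119 by the series title) and 3 for wild type larvae. Each array stands for a biological replicate of 200 pooled larvae, of mixed sex and with all tissues. The protein of Pof is known for binding along chromosome 4. The labels say neither what the allele alters, nor which marker mutations it is kept with, nor which stock served as wild type.

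Fly eyes owe their colour to 2 groups of pigments, the brown ommochromes made from tryptophan and the red drosopterins, which are pteridines made from guanosine triphosphate. Both are stored in pigment granules that their precursors enter through ABC transporters. The protein of w pairs with that of st for ommochrome precursors and with that of bw for pteridines. Most of these genes act in the pupal eye, and several also act in the Malpighian tubules, the excretory organ, which store pigment and precursors in larvae. Because many laboratory stocks carry classical mutations in these genes, a transcript missing on all arrays of a group could show such a marker. An allele that leaves the amount of RNA as it was would not be visible in these values. A marker carried by both stocks would give no difference between the groups.

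Pof was read first as a check of the labels. Its log2 expression was 8.35, 8.44 and 8.43 on the mutant-labelled arrays, against 6.74, 6.83 and 6.82 on the wild type arrays. The signal was thus 3.06-fold higher under the mutant label (limma adjusted p = 9.47e-05), and where its probe set lies relative to the mutation is not given. The arrays are therefore called mutant-labelled below, and all directions rest on that label. Within a group, arrays correlated with r between 0.979 and 0.998 over all probe sets, lowest for wild type replicate 1. On that array the median of 121 cuticle family genes was 8.42, against 6.36 to 6.60 on the other arrays. On mutant-labelled replicate 2 the 3' probe sets of 3 control transcripts exceeded the 5' ones by 2.03 on average, against 1.20 to 1.48 on the other arrays, a measure of RNA quality or labelling.

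None of the 8 genes passed an adjusted p of 0.05 in limma (Benjamini-Hochberg over all 18769 probe sets), where 4.09% of all genes did. Before adjustment 1 gene, st, had a p under 0.05, as had 16.8% of all genes. The array signal of no gene was far lower in either group: the largest difference between group means was 0.33 on the log2 scale, which is 1.26-fold. The median difference over the 8 genes was 0.04, beside 0.02 over all genes, and the median size of the difference was 0.09, beside 0.10. Signs were mixed, with 4 genes above and 4 below 0.

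**Figure D1:**
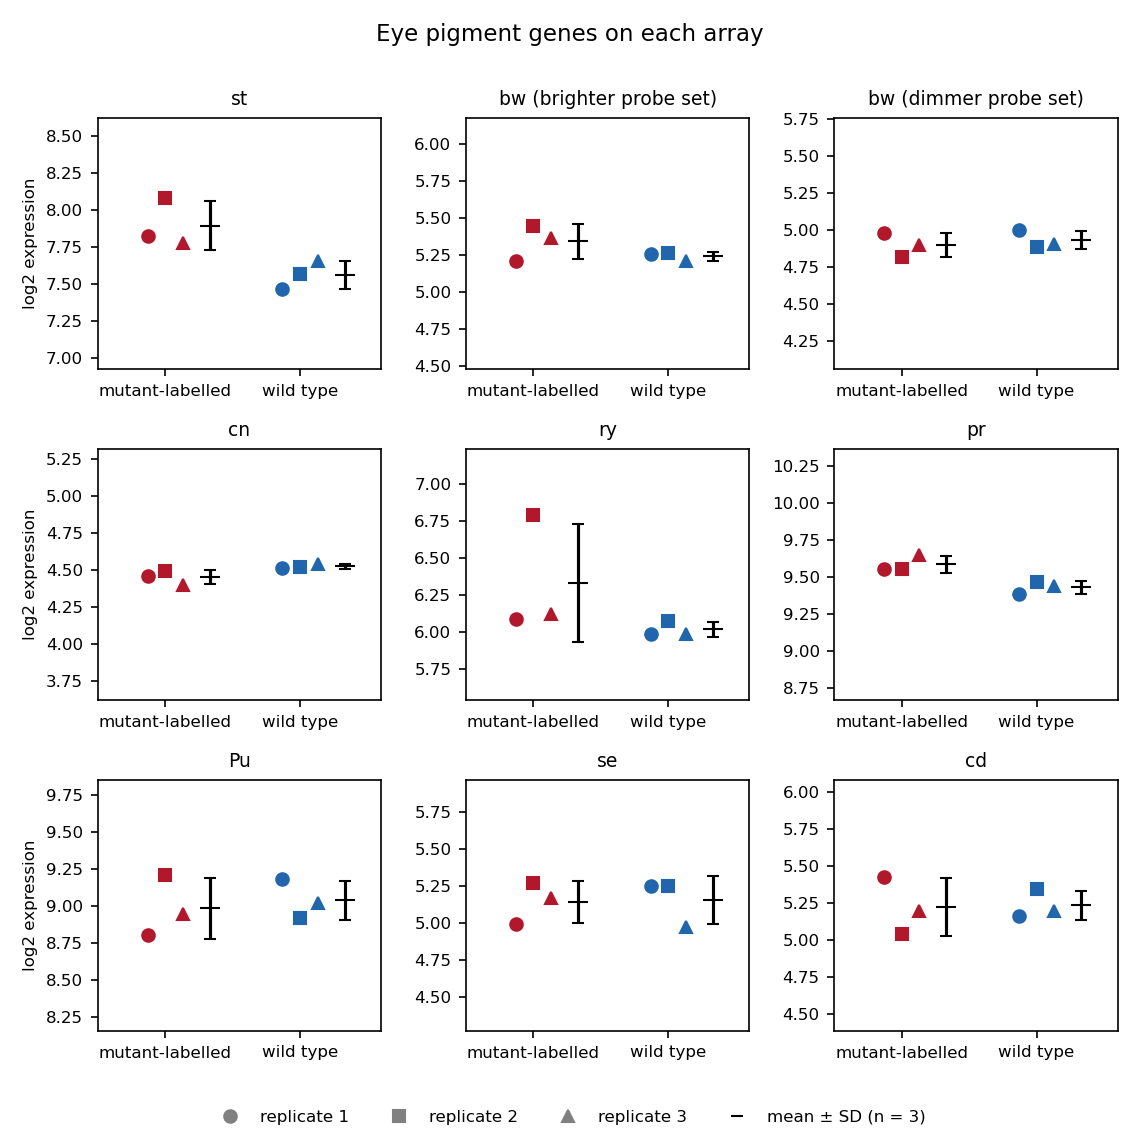
Log2 expression (vertical axis, a span of the same size in every panel) of the 9 probe sets of the 8 eye pigment genes on the 3 mutant-labelled arrays (red, left) and the 3 wild type arrays (blue, right), with symbols for the replicate number and black bars for the group mean ± SD. The groups lie apart by a small step in st and pr, and ry stands high on 1 mutant-labelled array at 6.79.

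Among the transporters, st gave 7.83, 8.08 and 7.78 on the mutant-labelled arrays, against 7.47, 7.57 and 7.66 on the wild type arrays. The groups did not overlap, and mutant-labelled replicate 2 was the highest of the 6. The mutant-labelled mean was 7.90 ± 0.17 and the wild type mean 7.56 ± 0.09 (SD, n = 3 each). Their difference of 0.33 (SE 0.10, unadjusted 95% interval 0.09 to 0.57) did not pass in limma (adjusted p = 0.183). It was 0.24 without mutant-labelled replicate 2 (adjusted p = 0.305) and 0.19 when wild type replicate 1 was left out as well (adjusted p = 0.340). Over all alternatives its adjusted p lay between 0.146 and 0.436.

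The pteridine transporter gene bw was dim on both of its probe sets. The brighter one read 5.21, 5.45 and 5.36 on the mutant-labelled arrays, against 5.26, 5.26 and 5.21 on the wild type arrays. The lowest values of both groups were level, and mutant-labelled replicates 2 and 3 were the highest arrays. The difference was 0.10 (interval -0.09 to 0.29, limma adjusted p = 0.707). The dimmer probe set read 4.98, 4.82 and 4.90 on the mutant-labelled arrays, against 5.01, 4.89 and 4.91 on the wild type arrays. Its difference had the opposite sign, at -0.03 (interval -0.21 to 0.14, adjusted p = 0.917), and the groups overlapped. The mean of both bw probe sets differed by 0.03 (adjusted p = 0.903).

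In ommochrome synthesis, cn encodes kynurenine 3-monooxygenase, which makes 3-hydroxykynurenine. It was the dimmest of the members, with 4.46, 4.49 and 4.40 on the mutant-labelled arrays, against 4.51, 4.52 and 4.54 on the wild type arrays. All mutant-labelled values lay below all wild type values, by a gap that was small beside the SD of 0.05 among them. The difference of -0.07 (SE 0.06, interval -0.22 to 0.08) did not pass (limma adjusted p = 0.733). The gene cd encodes a haem peroxidase linked to the last step, from 3-hydroxykynurenine to the brown pigment xanthommatin. It read 5.43, 5.04 and 5.20 on the mutant-labelled arrays, against 5.16, 5.35 and 5.20 on the wild type arrays. The mutant-labelled arrays held both the highest and the lowest value. The difference was -0.01 (interval -0.27 to 0.25, adjusted p = 0.983).

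Drosopterin synthesis starts with Pu, which encodes GTP cyclohydrolase I, the entry enzyme for all pteridines. Its values were 8.81, 9.21 and 8.95 on the mutant-labelled arrays, against 9.18, 8.92 and 9.02 on the wild type arrays. The groups overlapped across most of their range. The mutant-labelled mean was 8.99 ± 0.21 and the wild type mean 9.04 ± 0.13 (SD, n = 3 each), a difference of -0.05 (interval -0.34 to 0.23, limma adjusted p = 0.918).

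The next enzyme, 6-pyruvoyl tetrahydropterin synthase, is encoded by pr. It gave 9.55, 9.55 and 9.65 on the mutant-labelled arrays, against 9.38, 9.47 and 9.44 on the wild type arrays. The groups did not overlap and both were tight, with 9.58 ± 0.06 on the mutant-labelled and 9.43 ± 0.04 on the wild type arrays (SD, n = 3 each). The difference of 0.16 (SE 0.07, interval -0.0047 to 0.32) did not pass in limma (adjusted p = 0.385), and without 1 array it stayed between 0.12 and 0.17.

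The gene se encodes a glutathione S-transferase of the omega class that makes the pyrimidodiazepine precursor of drosopterins. Its values were 4.99, 5.27 and 5.16 on the mutant-labelled arrays, against 5.25, 5.25 and 4.97 on the wild type arrays. Each group had 1 array well under the rest. The difference was -0.01 (interval -0.27 to 0.25, limma adjusted p = 0.980).

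The rosy gene ry encodes xanthine dehydrogenase, which oxidises xanthine to uric acid and also acts on pteridines. It read 6.08, 6.79 and 6.12 on the mutant-labelled arrays, against 5.99, 6.07 and 5.99 on the wild type arrays. The groups did not overlap, but 5 of the 6 arrays lay within 5.99 to 6.12 and only mutant-labelled replicate 2 stood off. The mutant-labelled mean was 6.33 ± 0.40 and the wild type mean 6.02 ± 0.05 (SD, n = 3 each). The difference was 0.32 (SE 0.18, interval -0.12 to 0.75, limma adjusted p = 0.548), and 0.09 without that array (SE 0.07, adjusted p = 0.691). That array also had the highest 3' minus 5' difference of the controls, and the part of RNA quality in the ry value was not tested.

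**Figure D2:**
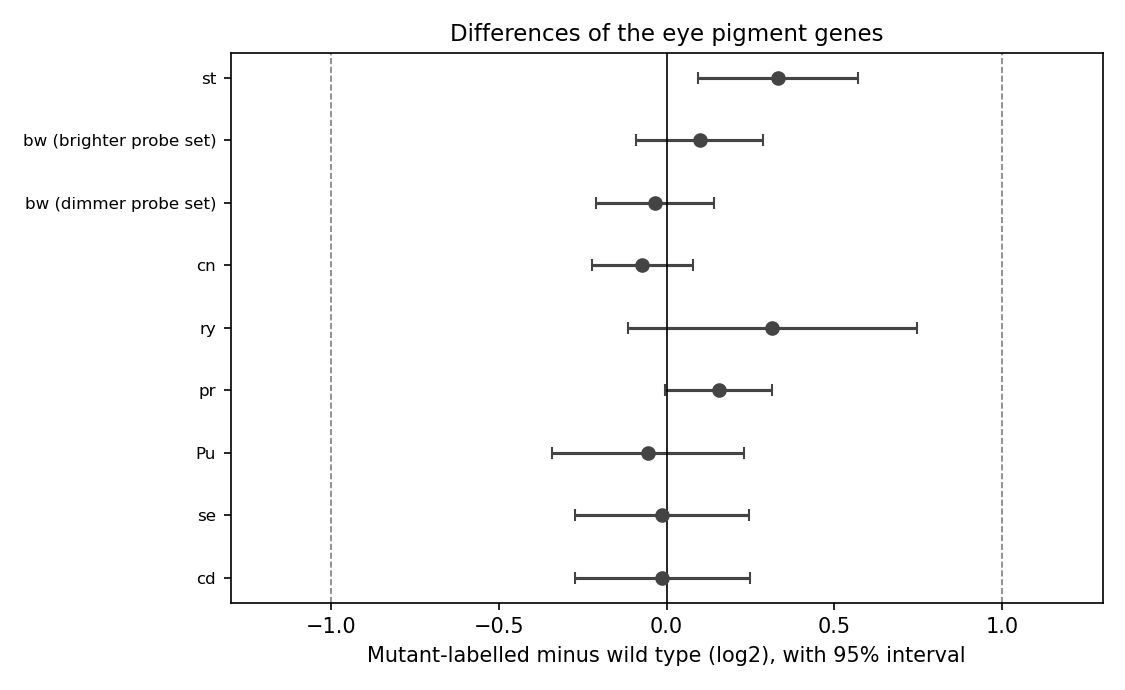
Difference of group means, mutant-labelled minus wild type (horizontal axis, log2), of the 9 probe sets with the unadjusted 95% interval from limma; dashed lines mark a 2-fold difference either way. All intervals stay inside the dashed lines, the widest being that of ry (-0.12 to 0.75), and the interval of st (0.09 to 0.57) leaves out 0.

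The intervals bound the difference in array signal between the groups. For bw, cn, pr, Pu, se and cd the unadjusted 95% interval of the ratio of mutant-labelled to wild type signal stayed within 0.790 and 1.24 on the probe set standing for the gene. It was 1.07 to 1.49 for st and 0.923 to 1.68 for ry. A doubling or a halving lay outside the interval of each of the 8 genes. These are intervals of the array signal: the probe set of cn and the dimmer one of bw lay below the lower quartile of all probe sets (5.11 to 5.24) on all 6 arrays. The brighter bw probe set, se and cd lay on both sides of it, and only st, ry, pr and Pu lay above it on all arrays. No detection calls were used, so for the 4 dim genes bw, cn, se and cd a signal at background on all 6 arrays cannot be told apart from a low level in both groups. Nor can it be told apart from a low level in only a single group. A marker allele that removes the transcript of these 4 genes could thus go unseen as well. In pooled whole larvae, fewer cells of a type and less RNA per cell cannot be told apart either.

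Of the 8 genes, 4 had groups that did not overlap: st, ry and pr higher and cn lower on the mutant-labelled arrays. Over all genes 22.4% did not overlap, 14.5% with the mutant-labelled arrays higher and 7.95% with them lower. The gaps were narrow: the nearest mutant-labelled array read 6.08 in ry, 4.49 in cn, 9.55 in pr and 7.78 in st, and the nearest wild type array 6.07, 4.51, 9.47 and 7.66 in the same genes. Within the mutant-labelled group, replicate 2 was the highest array for 6 of the 8 genes, against 34.5% of all genes. For the other two, pr and cd, it was the lowest, in pr by less than the rounding of the values above. The per-array median of the 8 genes was 5.76, 6.12 and 5.74 on the mutant-labelled arrays, against 5.62, 5.71 and 5.60 on the wild type arrays, so that the array with the high 3' minus 5' difference stood above all others. Its part in these values was not tested.

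**Figure D3:**
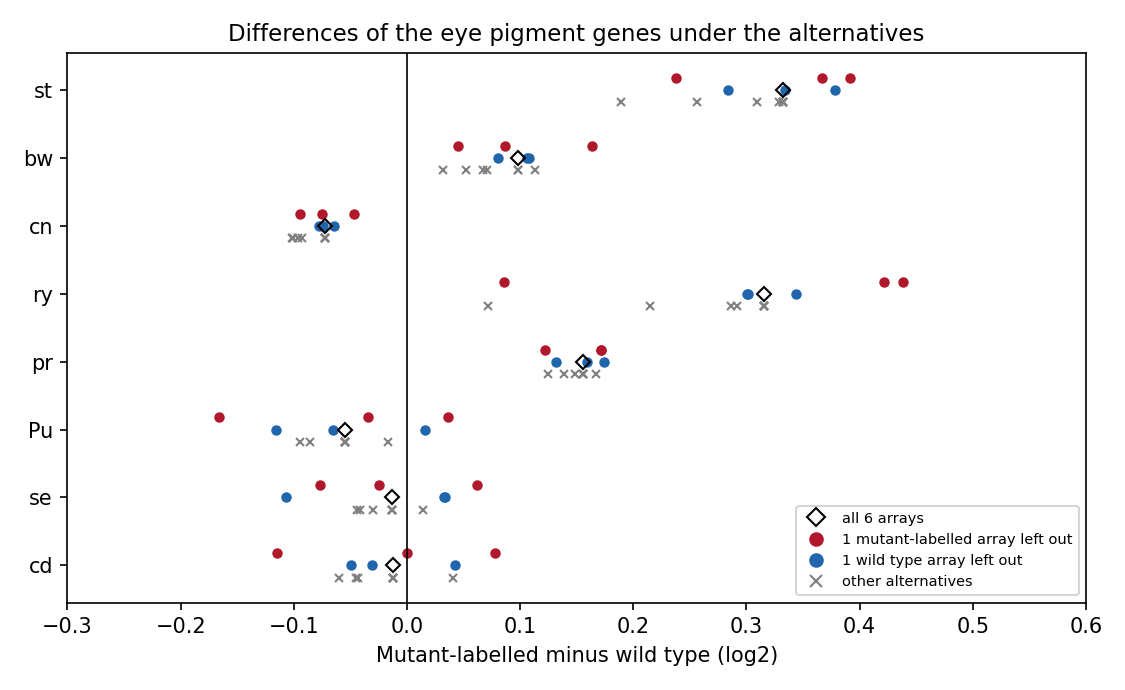
Difference of each eye pigment gene (horizontal axis, log2, mutant-labelled minus wild type) with all 6 arrays (black diamond), with 1 array left out (red or blue dots) and under the other alternatives (grey crosses). The values of st, bw, ry and pr stay above 0 and those of cn below it, while Pu, se and cd lie on both sides; ry ranges from 0.07 to 0.44.

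Further genes were taken from 8 lists with 62 genes, of which 53 were measured. The lists hold genes of pigment synthesis, transport and storage, and also relatives by protein family or cofactor. These relatives are other ABCG transporters, aldehyde oxidases and tetrahydrobiopterin users, whose part in eye pigment was not tested. In limma 5 of the 53 genes rose, 1 fell and 47 did not pass, beside 2.65% and 1.44% of all genes that rose and fell. Of the called genes, AOX3, CG5853 and CG4822 are such relatives. Dhpr is listed under pteridine synthesis, but its enzyme regenerates the cofactor tetrahydrobiopterin, and its part in eye pigment was not tested either. Without adjustment, 9 of the 53 lay higher and 3 lower with a p under 0.05, beside 1253 higher and 756 lower of the 11982 genes. The groups did not overlap in 22.6% of the 53 genes, beside 22.4% of all genes. The median difference of the 53 genes was 0.06, beside 0.02 over all genes. The 3 largest changes, in AOX3, Dhpr and CG5853, were called under all 16 alternatives. The remaining calls, of cl, CG4822 and HPS1, were lost without most single arrays. Without any 1 of the mutant-labelled arrays or of wild type replicates 2 and 3, 3 of the 53 genes were called. Over all genes 202 to 300 were then called, against 490 with all 6 arrays. Without wild type replicate 1 the numbers were 5 and 536. With 1 array left out the difference ranged from 0.345 to 0.43 in cl, from 0.43 to 0.57 in CG4822 and from -0.60 to -0.48 in HPS1.

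In the pteridine branch that Pu and pr open, 2 of 5 measured genes rose and 3 did not pass, beside 2.65% of all genes that rose. All 5 differences were above 0, as were 6792 of the 11982 over all genes. Dhpr, whose enzyme regenerates tetrahydrobiopterin, read 9.04, 9.03 and 8.86 on the mutant-labelled arrays, against 8.23, 8.31 and 8.33 on the wild type arrays. That is 1.61-fold higher (log2 0.69, SE 0.08, limma adjusted p = 0.00555). The gene cl, named for the clot eye colour and coding for a thioredoxin-like protein of drosopterin synthesis, rose 1.32-fold, to 11.2 ± 0.03 on the mutant-labelled arrays, against 10.8 ± 0.09 on the wild type arrays (SD, n = 3 each, adjusted p = 0.0356). Leaving out any 1 array ended that call (0.0689 to 0.127 after adjustment). The sepiapterin reductase gene Sptr gave 0.27 without passing (adjusted p = 0.117, or 0.0312 with array weights). The list's median difference was 0.27.

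In the ommochrome branch that holds cn and cd, 0 of 3 measured genes passed in limma, where 4.09% of all genes did. Before adjustment 1 lay higher and 1 lower with a p under 0.05, beside 16.8% of all genes with such a p. KFase, for the kynurenine formamidase just before cn, read 8.04, 8.06 and 7.89 on the mutant-labelled arrays, against 7.74, 7.61 and 7.62 on the wild type arrays (log2 difference 0.34, adjusted p = 0.0780). With array weights its adjusted p was 0.0386. The karmoisin eye colour gene kar read 8.74, 8.71 and 8.80 on the mutant-labelled arrays, against 9.34, 9.13 and 9.01 on the wild type arrays (log2 difference -0.41, adjusted p = 0.0788). The groups did not overlap in either gene, as in 22.4% of all genes, and they lay apart in opposite directions. The median difference of the 3 genes was -0.02.

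**Figure D4:**
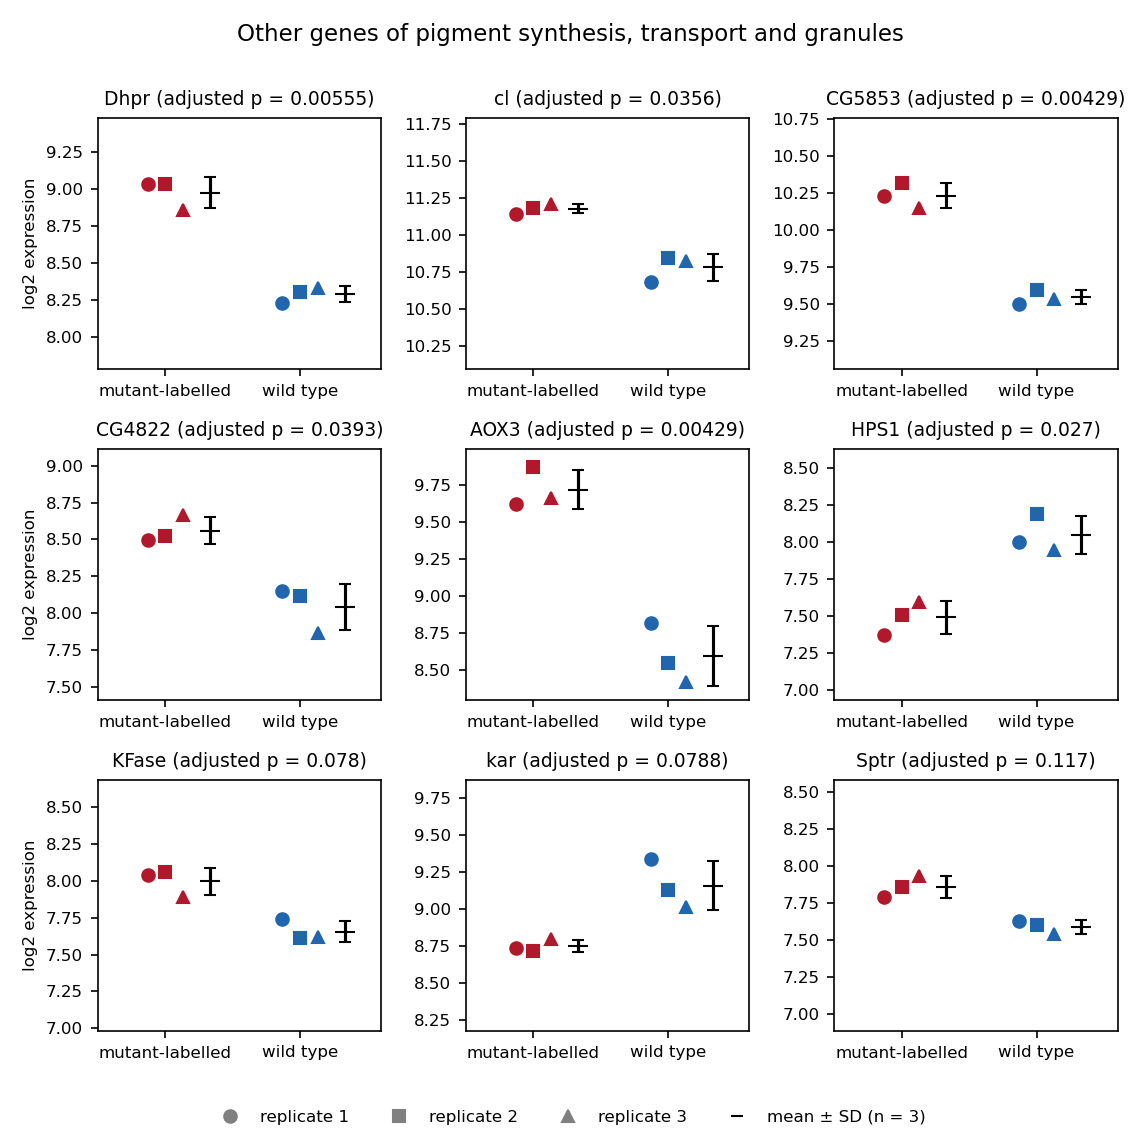
Log2 expression (vertical axis, a span of the same size in every panel) of 9 further genes from the lists of pigment pathway genes and their relatives on the mutant-labelled arrays (red, left) and the wild type arrays (blue, right), with black bars for the group mean ± SD and the limma adjusted p above each panel. AOX3, CG5853 and CG4822 are relatives by protein family. AOX3 shows the widest step, 2.18-fold, and HPS1 and kar lie lower on the mutant-labelled arrays.

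Among 11 ABCG transporter genes other than w, st and bw, 2 rose, 0 fell and 9 did not pass, beside 2.65% and 1.44% of all genes that rose and fell. Their median difference was 0.04. CG5853 read 10.2, 10.3 and 10.1 on the mutant-labelled arrays, against 9.50, 9.60 and 9.53 on the wild type arrays, 1.61-fold higher (limma adjusted p = 0.00429). CG4822 rose 1.43-fold (log2 0.52, SE 0.10, adjusted p = 0.0393), a call that ended when any 1 array but wild type replicate 1 was left out (0.0906 to 0.136) and after cyclic loess (0.0628). Atet gave -0.48 without passing (adjusted p = 0.311). It was at -0.29 without mutant-labelled replicate 1 (adjusted p = 0.445) and at -0.75 without wild type replicate 1 and mutant-labelled replicate 2 (adjusted p = 0.0180), the only alternative in which it passed.

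Of 18 measured genes for the traffic of pigment granules 0 rose and 1 fell, beside 2.65% and 1.44% of all genes. Their median difference was 0.05. HPS1, a subunit of a complex that in mammals activates Rab32 on such organelles, read 7.37, 7.51 and 7.59 on the mutant-labelled arrays, against 8.0, 8.19 and 7.95 on the wild type arrays. It fell by 0.55 on the log2 scale (SE 0.09, limma adjusted p = 0.0270), a call that likewise ended without any 1 array but wild type replicate 1 (0.0569 to 0.106). None of 9 purine synthesis genes passed in limma, with 0 at an unadjusted p under 0.05 and a median of -0.02. None of 2 molybdenum cofactor genes did, with 1 at such a p (Mocs1, 0.25, adjusted p = 0.189) and a median of 0.13. The only measured tetrahydrobiopterin user, the tyrosine hydroxylase gene ple, gave 0.16 (adjusted p = 0.609). Its probe set lay below the lower quartile of all probe sets on all 6 arrays.

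The aldehyde oxidase genes AOX1 to AOX4 follow each other in the gene order of arm 3R and code for molybdenum enzymes related to the xanthine dehydrogenase of ry. They stand in the list of urate and xanthine enzymes, whose other gene, Uro, was not measured. All 4 genes read from that list are thus aldehyde oxidase genes. Of these 4 genes 1 rose and 3 did not pass in limma, beside 2.65% of all genes that rose. The median difference of the 4 genes was 0.21. AOX3 read 9.62, 9.87 and 9.67 on the mutant-labelled arrays, against 8.82, 8.55 and 8.42 on the wild type arrays, 2.18-fold higher (log2 1.12, SE 0.12, adjusted p = 0.00429). AOX1 gave 0.36 (adjusted p = 0.168), AOX2 -0.01 (adjusted p = 0.975) and AOX4 0.06 (adjusted p = 0.905). The AOX2 probe set lay below the lower quartile of all probe sets on all 6 arrays. That of AOX4, at 5.12 to 5.48, lay close above it. For these dim genes a signal at background cannot be told apart from an unchanged low level. Whether AOX3 and ry differ in their response was not tested.

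Tissue markers were read because eye pigment genes are used in particular organs. Over all genes 2.65% rose and 1.44% fell in limma, and 16.8% had an unadjusted p under 0.05. Of 11 measured Malpighian tubule genes 2 rose, 0 fell and 9 did not pass. Of the 11 differences 8 lay above and 3 below 0, with a list median of 0.10. The tubule alkaline phosphatase gene Alp4 rose 1.68-fold (limma adjusted p = 0.0212) and the phosphate transporter gene NaPi-T 1.58-fold (adjusted p = 0.0393). Alp4 lost its call without mutant-labelled replicates 1 or 2 or wild type replicates 2 or 3 (0.0739 to 0.0978), and NaPi-T without any single array except mutant-labelled replicate 1 (0.0589 to 0.154) or after quantile normalization or cyclic loess (0.0914 and 0.0915). The list median by array was 8.28, 8.47 and 8.21 on the mutant-labelled arrays, against 8.22, 8.34 and 8.21 on the wild type arrays. None of 8 eye determination genes passed in limma, with 0 at an unadjusted p under 0.05 and a median of -0.02. None of the 4 measured of 7 fat body genes did, with 2 at such a p and a median of 0.12: apolpp gave 0.40 (adjusted p = 0.0714) and Lsp2 0.18 (adjusted p = 0.331). Without wild type replicate 1 the lipoprotein gene apolpp passed, at 0.48 (adjusted p = 0.0320), and over all settings its adjusted p lay between 0.0115 and 0.275. This gene lies on chromosome 4, along which the Pof protein binds, as do ey and toy of the eye determination list. The part of that location in their values was not tested. Of 10 photoreceptor genes 5 were measured, of which 1 fell and 4 did not pass. Arr1, an arrestin, read 7.39, 7.64 and 7.40 on the mutant-labelled arrays, against 8.44, 8.83 and 8.62 on the wild type arrays (log2 difference -1.15, adjusted p = 0.00406). Arr2 gave 0.03 (adjusted p = 0.92). Of the 5 differences 1 lay above and 4 below 0, with a median of -0.15. Among those below 0, the trp probe set lay below the lower quartile of all probe sets on all 6 arrays, and that of inaD on 3. The cuticle families had 0 rises and 1 fall among 121 genes, that of TwdlN (-0.47, adjusted p = 0.0393). The families' median difference was -0.31, and their median by array was 6.46, 6.37 and 6.60 on the mutant-labelled arrays, against 8.42, 6.41 and 6.36 on the wild type arrays, so that only wild type replicate 1 stood above the rest. The TwdlN call ended without any 1 array but mutant-labelled replicate 1 (0.0691 to 0.138) and after cyclic loess (0.0506). The part of any of these tissues in the values of the eye pigment genes was not tested.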

How the data were processed

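The authors deposited 1 log2 expression value for each probe set and array, computed by RMA according to the submitters' processing notes, which name no version or setting. In its usual form RMA makes the arrays' distributions alike and compresses folds of dim probe sets. Of 18952 probe sets 183 controls were left out. By the platform's annotation, of the remaining 18769 probe sets 13647 had 1 gene symbol, 402 several and 4720 none. Symbols were updated by gene ID through the Release 6 plus ISO1 MT reference table, which held the ID of 13544 and was used for names and gene order only. The brightest single-gene probe set stands for a gene.

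The 2 groups were compared with limma 3.58.1 under R 4.3.3, in 1 fit (lmFit, then eBayes) of all 18769 probe sets with no covariate. P-values are two-sided, and those called adjusted were adjusted by Benjamini-Hochberg over all 18769 probe sets. Genes with an adjusted p under 0.05 are called. Each difference is the mutant-labelled mean minus the wild type mean. The eye pigment genes, the lists and the alternatives were chosen with earlier results of these data known, and the lists are described by counts and medians alone. Named genes were the eye pigment genes, Pof, and from each list the called genes and some of the 4 with the smallest p. Neighbours and genes of similar pattern are named only for called eye pigment genes, of which there were 0. The fit was tested on simulated data. The number of arrays limits the precision, and values came without depth or detection calls.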

Additional observations from a re-analysis of the deposited data

How the results depend on the processing

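With each of the 16 alternatives, which were a filter to the upper 60% of probe sets by mean, further quantile normalization, cyclic loess, trended and robust variances, array weights, the replicate block, the mean of a gene's probe sets, a threshold of 0.10, no probe sets with the suffixes _s, _x or _a, each array left out in turn, and wild type replicate 1 and mutant-labelled replicate 2 left out together, 0 eye pigment genes were called. The filter left out bw, cn, se and cd, and bw, pr and Pu have no probe set without those suffixes. Of 113 alternative values of the 8 differences, 103 kept their sign. Those that did not belong to Pu, se and cd: with 1 array left out Pu ranged from -0.17 to 0.036, se from -0.11 to 0.062 and cd from -0.12 to 0.078. With array weights se was at 0.014, and without both named arrays cd was at 0.041. With 1 array left out, AOX4 ranged from -0.029 to 0.15 and AOX2 from -0.082 to 0.031; with array weights AOX4 was at -0.017, and without both named arrays AOX2 was at 0.046. The genes called among the 8 lists of pathway genes and relatives numbered 3 to 5 with 1 array left out, against 6. All genes called numbered 202 to 536 with 1 array left out, 840 with array weights and 712 without both named arrays, against 490. The cause of these moves was not tested. With the replicate number as a block, 0 eye pigment genes, 4 genes of the 8 lists (cl and CG4822 lost, adjusted p = 0.0543 and 0.0830) and 476 of all genes were called. Same-numbered arrays of the groups deviated together with r = 0.177, 0.132 and 0.0251. Arrays with different numbers gave r from -0.19 to 0.152, the highest for mutant-labelled replicate 2 with wild type replicate 3 and all others negative. The labels name no batch, so the numbers were not taken as pairs. Whether they mark a shared batch was not tested.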
